A study of Mus musculus with 4 samples.

Results

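Dendritic cells of the mouse colon were picked out of droplet single-cell RNA data by their own transcripts, and 195 of 13158 cells met the rule. They were 42 of 6914 cells in batch 1 (0.607%, exact 95% binomial interval 0.438 to 0.820%) and 153 of 6244 cells in batch 2 (2.45%, 2.08 to 2.87%). Members were chosen by these measured values. A cell needed 1000 or more UMIs (unique molecular identifiers, each standing for 1 captured transcript), 250 or more genes and no more than 25% mitochondrial UMIs. It had at least 1 UMI summed over Flt3, Zbtb46, Xcr1, Clec9a and Ccr7, and at least 10 UMIs of Cd74. Cells with more than 1 UMI of C1qa, C1qb and C1qc together or more than 1 of Epcam and Krt8 together were left out. So were cells with any UMI of Cd3e, Cd3g or Cd79a, or with 1% or more of their UMIs from S100a8 and S100a9. These values, and with them every gene of the cells so chosen, are the rule's own contrast, and what sets dendritic cells or their subsets apart is therefore described here without a test.

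The cells came from colons of C57/BL6J mice, digested with Liberase and DNase after a DTT wash. The 4 conditions had 1 hashtag antibody each (JUP-KO given DSS, wild type given DSS, JUP-KO without treatment and wild type without treatment). Their cells were mixed within a batch, sorted as viable cells and loaded together. DSS, dextran sulfate sodium, is a polymer given in drinking water to provoke colitis, and Jup is the gene of plakoglobin, a junction protein. The sources used here do not give the knockout allele, the cells in which it acts, the age and number of mice or the days of DSS, nor whether the batches were separate mice.

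The 4 hashtags are named TG_DSS, Ctrl_DSS, TG_WT and Ctrl_WT, and the names and the antibody numbers give different readings. TG_DSS is JUP-KO given DSS and Ctrl_WT is untreated wild type in both. TG_WT is untreated JUP-KO by name but wild type given DSS by antibody number, and Ctrl_DSS is the reverse. Cells are therefore called by their hashtag names.

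Conventional dendritic cells arise from precursors that need the receptor Flt3 and carry the transcription factor Zbtb46. In the gut wall they take up antigen and load its peptides on MHC class II, whose invariant chain is Cd74, for display to T cells. One lineage, marked by the chemokine receptor Xcr1 and the dead-cell receptor Clec9a, depends on the transcription factors Irf8 and Batf3 and is known for cross-presentation to CD8 T cells. Another carries the inhibitory receptor Sirpa and, in mice, the lectin Cd209a, and is known for activating CD4 T cells. On maturation cells of either lineage express Ccr7, which guides them to the draining lymph node, and the actin-bundling protein Fscn1.

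Batch 1 held 133919905 gene UMIs and batch 2 held 95408149, and the kept cells had medians of 12984 and 7471.5 UMIs. In the 2 batches, dendritic cells had medians of 7994 and 6719 UMIs, and they summed to 372906 and 1249600 UMIs. The libraries shared 13 cell barcodes among the kept cells. Levels are given below as CPM, the UMIs of a gene per 1e6 UMIs summed over a group of cells in 1 batch. Cells are not replicates of a condition, and all intervals cover counting error only.

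H2-Ab1, the beta chain of the MHC class II molecule I-A and not part of the rule, had a UMI in 41 of 42 dendritic cells in batch 1 and in 148 of 153 in batch 2. Cd74 ranged from 13 to 566 UMIs a cell (median 170.5) in batch 1 and from 11 to 667 (median 131) in batch 2, so few cells lay near the limit of 10. Flt3 had a UMI in 27 of 42 dendritic cells (64.3%) and in 92 of 153 (60.1%). At similar depth, C1q macrophages (cells with at least 5 UMIs of C1qa, C1qb and C1qc) had Flt3 in 3.97% and 6.25% of cells. Their medians were 5429.5 and 7017.5 UMIs. Epithelial cells, which should lack Flt3, had it in 0.161% and 0.237% of cells at medians of 18215 and 17309.5 UMIs. Cd74 and Flt3 are genes of the rule, so their levels describe the choice of cells. H2-Ab1 had 5213 and 4319 CPM in dendritic cells of batches 1 and 2, against 5309 and 3273 CPM in C1q macrophages, and does not set the 2 apart.

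Zbtb46 had a UMI in 23.8% and 25.5% of dendritic cells, Xcr1 in 28.6% and 18.3%, Clec9a in 42.9% and 29.4%, and Ccr7 in 35.7% and 33.3%. In C1q macrophages of batches 1 and 2 the shares were 2.38% and 4.46% for Zbtb46, 3.97% and 4.91% for Clec9a, and 1.59% and 5.36% for Ccr7. Sirpa did not mark dendritic cells against other myeloid cells. It had a UMI in 23.8% and 20.9% of dendritic cells, against 63.5% and 71.4% of C1q macrophages. Cd209a was in 21.4% and 26.8% of dendritic cells, against 4.76% and 7.14% of C1q macrophages.

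**Figure D1:**
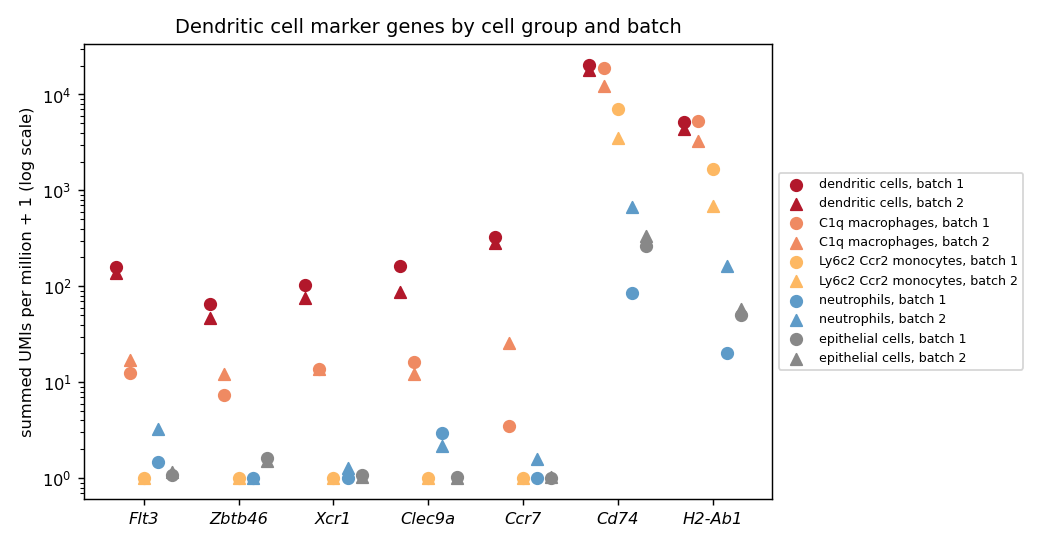
Summed level of 7 dendritic cell marker genes (CPM + 1, log scale, vertical axis) in dendritic cells and 4 other cell groups, with circles for batch 1 and triangles for batch 2. Flt3 stands at 158 and 138 CPM in dendritic cells and at 15.9 CPM or less in every other group, whereas Cd74 and H2-Ab1 are nearly as high in C1q macrophages.

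Many members entered on little evidence. A single UMI over the 5 marker genes carried 60 of the 195, while 34 had 10 or more. The members with 1 marker UMI had a median of 11.5 UMIs of H2-Ab1, against 10 in 267 cells that met every other limit with no marker UMI and were left out. On the Cd74 limit, 5 members had 10 to 14 UMIs with a median of 3 UMIs of H2-Ab1, and 14 cells with 5 to 9 UMIs fell outside with a median of 1. Of cells near the C1q limit, 4 members had 1 UMI and 2 cells with 2 UMIs were outside.

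Transcripts that mark macrophages, neutrophils, monocytes and epithelium were lower in dendritic cells than in those cells. The lists include genes by which the cells were chosen. C1qa, C1qb, C1qc, S100a8, S100a9, Epcam and Krt8 were limited in dendritic cells and required in the other groups, and Ly6c2 and Ccr2 were required in monocytes. The gaps between the sums were thus in part set in advance and describe the choice of cells. The genes of the macrophage list summed to 185 and 435 CPM in dendritic cells of batches 1 and 2, against 22315 and 16677 CPM in C1q macrophages, and C1qc, which the rule limits, was at 0 in both batches. The neutrophil list summed to 180 and 262 CPM in dendritic cells, against 194758 and 200547 CPM in neutrophils (cells with at least 2% of UMIs from S100a8 and S100a9), and Cxcr2 and Mmp9 were at 0. The monocyte list reached 1638 and 3551 CPM in dendritic cells, against 23319 and 21437 CPM in cells with both Ly6c2 and Ccr2. Those monocytes were also chosen to have no UMI of Flt3, Zbtb46, Xcr1, Clec9a or Ccr7. Dcn, a fibroblast gene, had 244 and 62.4 CPM in dendritic cells, against 5.09 and 2.12 CPM in C1q macrophages. Its UMIs were in 1 dendritic cell of batch 1 and 5 of batch 2. The epithelial list summed to 365 and 456 CPM in dendritic cells, against 30196 and 41987 CPM in epithelial cells. Car1, a carbonic anhydrase of colon epithelium, had a UMI in 47.6% and 64.7% of dendritic cells and in 62.0% and 62.2% of neutrophils. Epithelial RNA was thus found at a like share in cells that do not make it, and its part in any level below was not tested.

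Against all other cells, the genes highest in dendritic cells named antigen presentation, T cell attraction and both conventional lineages. Of 3332 genes with at least 50 CPM in both batches on either side, 225 (6.75%) were at least 4-fold higher in both batches and 552 (16.6%) at least 4-fold lower. The 20 with the largest lower ratio of the 2 batches ran from Ccl22, with a lower ratio of 114, to Ctnnd2, a neuronal delta-catenin, with 29.9. Ccl22, a chemokine that draws CCR4-bearing T cells, had 217 and 135 CPM in dendritic cells of batches 1 and 2, against 0.0545 and 1.19 CPM in all other cells. Besides the rule's Ccr7, Xcr1, Clec9a and Flt3, the 20 held Timd4, a phosphatidylserine receptor, with 129 and 109 CPM against 0.899 and 2.03 CPM. Btla, an inhibitory receptor, had 105 and 111 CPM against 0.663 and 2.13 CPM. The far more numerous other cells held 99 and 159 UMIs of Timd4, against 48 and 136 in dendritic cells. Btla had 39 and 139 UMIs in dendritic cells and 73 and 167 in the others.

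Other members of the 20 act in antigen handling, metabolism and cell shape. H2-Oa, the alpha chain of the MHC class II modulator H2-O, had 139 and 105 CPM in dendritic cells, against 1.47 and 2.41 CPM in all other cells. H2-DMb2, a beta chain of the peptide-loading catalyst H2-DM, had 137 and 124 CPM against 1.64 and 3.45 CPM. Itgae, the integrin CD103, had 147 and 118 CPM against 2.88 and 3.82 CPM. The others were Gcsam, Cd209a, Zfp366 (the zinc finger factor DC-SCRIPT), Serpinb6b (a protease inhibitor), Fscn1, Tnni2 (a troponin), P2ry10 (a lysophosphatidylserine receptor), Kmo (kynurenine 3-monooxygenase) and Il4i1 (an amino acid oxidase). These genes were found in dendritic cells of both batches at 56.3 to 343 CPM.

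By list, and counting only genes outside the rule that reached 50 CPM, 10 of 12 genes of the Xcr1 lineage were at least 4-fold higher in dendritic cells (median log2 ratio 3.83, against −0.23 over all genes compared). For the mature list, 10 of 18 were (median 2.85), for genes common to dendritic cells 8 of 13 (2.34) and for the Cd209a and Sirpa lineage 5 of 11 (1.53). Among MHC class II and peptide-loading genes, 9 of 12 were at least 4-fold higher (3.79), and 4 of 15 MHC class I and cross-presentation genes were (0.95). No gene of 12 in the inflammasome and interleukin-1 list was higher by that measure, and Il18 was lower. Of 5 catenin and cadherin genes, Ctnnd1, Cdh1 and Dsp were lower. Since genes pass the level limit through the group in which they are high, these counts describe the chosen cells and carry no weight as evidence.

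MHC class II transcripts were high in dendritic cells and in C1q macrophages. H2-Aa had 7814 and 7076 CPM in dendritic cells, against 7648 and 4945 CPM in C1q macrophages and 2881 and 1041 CPM in the Ly6c2 Ccr2 monocytes. Epithelial cells had 50.8 and 70.0 CPM. Macrophages thus had nearly the same level in batch 1. The 2 genes of the pathway at least 2-fold higher in dendritic cells than in C1q macrophages in both batches were H2-Oa, with 139 and 105 CPM against 11.4 and 9.55 CPM, and H2-DMb2. The cathepsin Ctss had 922 and 1172 CPM against 3132 and 2843 CPM.

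The promoters of 3 of these genes are shown because the class is known for a shared promoter layout, an X box bound by RFX factors and a Y box bound by NF-Y, on which the coactivator Ciita acts. Each line gives bases 110 to 21 before the RefSeq start (build GRCm38.p6, read along the gene's strand), with capitals on CTGATTGG, a Y box motif, and on AGCAAC, the core of an X box motif. The stretches are chr17:34287844-34287933 on the minus strand for H2-Aa, chr17:34305757-34305846 on the plus strand for H2-Eb1 and chr17:34092269-34092358 on the plus strand for H2-Oa.
H2-Aa: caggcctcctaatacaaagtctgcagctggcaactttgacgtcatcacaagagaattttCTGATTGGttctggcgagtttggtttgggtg
H2-Eb1: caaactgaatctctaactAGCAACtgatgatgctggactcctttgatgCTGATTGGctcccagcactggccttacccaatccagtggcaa
H2-Oa: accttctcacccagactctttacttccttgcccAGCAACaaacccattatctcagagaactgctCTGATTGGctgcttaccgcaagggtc
The CTGATTGG motif began 51 bases before the start in H2-Aa, 62 in H2-Eb1 and 46 in H2-Oa. Searched on both strands of the 250 bases before the start, it was in 4 of the 11 list genes with a promoter entry (also H2-Eb2) and in 1198 of 27025 genes (4.43%). AGCAAC was in 4 of 11 (H2-Eb1, H2-Eb2, H2-Oa and H2-Ob) and in 3745 genes (13.9%). A match is a description of letters and not a measured site. H2-Eb1, with both motifs, had 6594 and 5359 CPM in dendritic cells, against 39.2 and 46.9 CPM in epithelial cells.

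Set against C1q macrophages, dendritic cells had lower levels of the macrophage list. Of 2864 genes compared, 131 (4.57%) were at least 2-fold higher and 414 (14.5%) at least 2-fold lower in both batches. All 10 macrophage-list genes compared, among genes outside the rule, were lower (median log2 ratio −3.86, against −0.10 over all genes), with Csf1r, the receptor of the macrophage growth factor, at 32.2 and 56.0 CPM in dendritic cells against 426 CPM in macrophages of either batch. Nlrp3, the inflammasome sensor, had 24.1 and 74.4 CPM in dendritic cells against 73.8 and 273 CPM in macrophages, and Casp4, Il1a and Il1rn were lower with it, 4 of 12 genes of that list. Legumain, Lgmn, an endosomal protease, had 85.8 and 149 CPM against 991 and 1035 CPM. On the higher side stood 9 of 13 common dendritic genes (median 1.68) and 9 of 12 genes of the Xcr1 lineage. The 2 groups were chosen on opposite sides of the C1q limits. These list counts therefore describe the chosen cells too and carry no weight as evidence.

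Against the Ly6c2 Ccr2 monocytes, 227 of 2635 genes (8.61%) were at least 2-fold higher in both batches and 340 (12.9%) at least 2-fold lower. All 14 monocyte-list genes were lower, of which Ly6c2 and Ccr2 define the monocytes. Of the interferon-stimulated list 8 of 15 were lower, and of the inflammasome and interleukin-1 list 6 of 12. Id2, a transcriptional inhibitor needed for dendritic cell development, had 716 and 583 CPM in dendritic cells, against 295 and 236 CPM in monocytes and 163 and 224 CPM in macrophages. Compared with neutrophils, 1234 of 2698 genes (45.7%) were at least 2-fold higher in both batches and 595 (22.1%) at least 2-fold lower. Il1b, the interleukin-1 beta gene, had 418 and 2250 CPM in dendritic cells, against 27637 and 18743 CPM in neutrophils and 3209 and 3516 CPM in monocytes.

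The 3 gene pairs divided the dendritic cells only in part. The Xcr1/Clec9a pair had a UMI in 19 of 42 cells in batch 1 (45.2%, 29.8 to 61.3%) and 52 of 153 in batch 2 (34.0%, 26.5 to 42.1%). Cd209a or Sirpa was found in 14 (33.3%, 19.6 to 49.5%) and 58 (37.9%, 30.2 to 46.1%). Ccr7 or Fscn1 was found in 21 (50%, 34.2 to 65.8%) and 59 (38.6%, 30.8 to 46.8%). The 3 pairs were scored in the same cells, so the overlap of these separate intervals does not judge their order. That order was not tested, and none is read here. The rule also treats the pairs unequally, since a cell could enter by Xcr1, Clec9a or Ccr7 but not by Cd209a, Sirpa or Fscn1. With every cell thinned to 1000 UMIs the counts were 4, 4 and 15 cells in batch 1 and 20, 26 and 31 in batch 2, so most calls of the first 2 pairs rest on few UMIs.

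Both genes of a pair were often found in 1 cell. Xcr1 and Clec9a met in 32 dendritic cells, which were 80% of the 40 with Xcr1 and 50.8% of the 63 with Clec9a. Cd209a and Sirpa met in 20 cells, 40% of the 50 with Cd209a and 47.6% of the 42 with Sirpa. Ccr7 and Fscn1 met in 22 cells, 33.3% of the 66 with Ccr7 and 61.1% of the 36 with Fscn1. Across pairs, Ccr7 was also found in 18 of the 42 cells with Sirpa (42.9%) and in 13 of those with Cd209a. A cell with Cd209a or Sirpa but no UMI of Flt3 or Zbtb46 could enter only with Xcr1, Clec9a or Ccr7. Overlap between pairs is thus in part set by the rule. Ccr7 was the only marker gene of the rule in 10 and 31 dendritic cells of batches 1 and 2. The combination of Cd209a/Sirpa with Ccr7/Fscn1 alone was held by 7 and 22 cells in batches 1 and 2. Xcr1/Clec9a with Ccr7/Fscn1 alone was held by 4 and 6 cells, and Xcr1/Clec9a with Cd209a/Sirpa alone by 1 and 8. Cells that carried no pair numbered 2 and 22.

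Profiles were taken from cells with 1 pair only, which were 13 and 37 cells for Xcr1/Clec9a, 5 and 27 for Cd209a/Sirpa and 9 and 30 for Ccr7/Fscn1. Median UMIs were 9370 and 12388, then 8928 and 7153, then 5782 and 4738 in the same order. Depth thus differed between the subsets, and its part in the differences was not tested. Batch 1 of the Cd209a/Sirpa subset rests on 5 cells.

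Xcr1/Clec9a cells carried the program known for that lineage. Of 2383 genes compared, 153 (6.42%) were at least 2-fold higher than in the other dendritic cells with 1 pair in both batches, and 203 (8.52%) were lower. Irf8, the transcription factor of the lineage, had 1153 and 997 CPM in Xcr1/Clec9a cells, against 58.6 and 84.8 CPM in the others, and a UMI in 13 of 13 and 35 of 37 cells. Batf3, its partner factor, had 274 and 238 CPM, against 43.6 and 107 CPM in Cd209a/Sirpa cells and 35.4 and 80.1 CPM in Ccr7/Fscn1 cells. Wdfy4, needed for cross-presentation in mice, had 626 and 483 CPM, against 262 and 88.3 CPM and 0 and 24.6 CPM. All 3 were highest in Xcr1/Clec9a cells in each batch.

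Tlr3, Itgae and Cadm1 were also higher in Xcr1/Clec9a cells. Tlr3, a sensor of double-stranded RNA, had 127 and 204 CPM in Xcr1/Clec9a cells, against 9.76 and 2.65 CPM in the others. Itgae had 281 and 270 CPM, against 0 and 21.2 CPM, and the adhesion molecule Cadm1 had 316 and 231 CPM, against 0 and 5.30 CPM. Lysosomal enzymes were among the 15 leading genes, Naaa with 935 and 869 CPM against 78.1 and 79.5 CPM, and Ppt1 with 717 and 771 CPM against 58.6 and 71.5 CPM. The remaining leaders were Mctp1 (a calcium-binding membrane protein), Gcsam, Gm36723, Dut (dUTPase), Ccser1, Clec9a, Ctla2b, Zdhhc14 (a palmitoyltransferase) and Pi4k2a (a lipid kinase).

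Counted by list, 13 of 13 genes of the lineage compared outside the rule were at least 2-fold higher in Xcr1/Clec9a cells (median log2 ratio 3.44, against −0.03 over all genes). The Cd209a/Sirpa list had 6 of 8 genes lower (median −3.66) and the mature list 15 of 20 lower (−2.75). The 3 cell cycle genes compared were all higher. Stmn1, a microtubule regulator of dividing cells, had 239 and 297 CPM in Xcr1/Clec9a cells, against 174 and 9.30 CPM in Cd209a/Sirpa cells and 35.4 and 6.16 CPM in Ccr7/Fscn1 cells. Over all 20 genes of the cell cycle list, Xcr1/Clec9a cells summed to 1399 and 2084 CPM, against 2572 and 325 CPM in Cd209a/Sirpa cells and 265 and 246 CPM in Ccr7/Fscn1 cells. In batch 1 the sum was thus highest in the 5 Cd209a/Sirpa cells. Of 13 MHC class II genes none was higher and Lgmn was lower.

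Cd209a/Sirpa cells were marked by further C-type lectins and by genes shared with monocytes and macrophages. Of 2408 genes, 172 (7.14%) were at least 2-fold higher than in the other cells with 1 pair and 100 (4.15%) lower. Clec10a, a galactose-binding lectin, had 283 and 288 CPM in Cd209a/Sirpa cells, against 0 and 16.7 CPM in the others, and its near copy Mgl2 had 240 and 246 CPM, against 30.2 and 6.67 CPM. Reads of that pair may be split between the copies. Clec4a3 had 240 and 116 CPM and Clec4a2 had 109 and 121 CPM in Cd209a/Sirpa cells. The mannose receptor Mrc1 had 153 and 97.6 CPM, against 0 and 6.67 CPM, with its batch 1 UMIs all in 1 cell.

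Among the integrins and chemokine receptors, Itgam, CD11b, had 327 and 232 CPM in Cd209a/Sirpa cells, against 7.03 and 34.3 CPM in Xcr1/Clec9a cells and 17.7 and 80.1 CPM in Ccr7/Fscn1 cells. Ccr2, which brings monocytes and some dendritic cells into tissue, had 240 and 562 CPM, against 127 and 96.1 CPM and 0 and 80.1 CPM. Pid1 had 981 and 414 CPM, against 90.6 and 48.4 CPM in all others with 1 pair. The other leading genes were Cd209a, Clec4b1, Ltb4r1 (a leukotriene B4 receptor), Gm15987, Atrnl1, Mitd1, Gda (guanine deaminase), Zfp608 and Ldah. In batch 1 Clec4b1, Mitd1 and Ldah rest on 3 UMIs each.

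By list, 5 of 9 genes of the Cd209a/Sirpa lineage compared outside the rule were higher, Clec10a, Mgl2, Cd209d, Itgam and Tmem176b (median 1.57, against 0.08 over all genes). Higher as well were 4 of 6 monocyte genes (Ccr2, Ms4a4c, Csf1r and Ifitm6) and 3 of 3 macrophage genes (Cd68, Csf1r and Mrc1). Csf1r had 131 and 60.4 CPM in Cd209a/Sirpa cells, against 426 CPM in C1q macrophages of either batch. The part of monocyte or macrophage RNA in this subset was not tested. Of the dissociation-stress list 4 of 18 were higher. Atf3 had 807 and 809 CPM in Cd209a/Sirpa cells, against 260.2 and 299.6 CPM in Xcr1/Clec9a cells and 177 and 437 CPM in Ccr7/Fscn1 cells.

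Summed over its cells, the Ccr7/Fscn1 subset carried most of the maturation list. Of 2441 genes, 252 (10.3%) were at least 2-fold higher than in the other cells with 1 pair and 181 (7.41%) lower. Of the mature list outside the rule, 22 of 24 genes compared were higher (median 3.33, against −0.08 over all genes). Chemokines led. Ccl5 had 1344 and 3406 CPM in Ccr7/Fscn1 cells, against 5.32 and 27.6 CPM in the others, Ccl22 had 919 and 462 CPM, against 0 and 13.8 CPM, and Ccl17 had 937 and 136 CPM, against 26.6 and 4.60 CPM. In batch 1 the Ccl5 UMIs were in 3 of 9 cells. In batch 2, Ccl5 had a UMI in 17 of 30 cells, Fscn1 in 14 and Ccl22 in 12. The sums therefore do not describe every cell of the subset.

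Fabp5, a fatty acid-binding protein, had 4067 and 2938 CPM in Ccr7/Fscn1 cells, against 21.3 and 47.5 CPM in the others. Cd63, a tetraspanin of late endosomes, had 28 UMIs in batch 1 and 117 in batch 2 in Ccr7/Fscn1 cells (495 and 721 CPM), against 2 and 15 UMIs in the more deeply summed others. Marcksl1, a regulator of the actin cortex, had 513 and 782 CPM, against 5.32 and 49.1 CPM, and Il7r, the interleukin-7 receptor chain, had 407 and 172 CPM, against 0 and 3.07 CPM. Il12b, the p40 chain of interleukins 12 and 23, had 212 and 487 CPM, against 5.32 and 16.9 CPM, but the batch 1 value came from 1 cell. Over all dendritic cells Il12b had 169 UMIs in 11 cells, of which 5 cells held 88.2%. The other leading genes were Fscn1, Ccr7, Il15ra, Rogdi, Arl5c, Mmp25 and Hsf2.

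Co-stimulatory and checkpoint genes were higher in Ccr7/Fscn1 cells in 5 of 8 cases, Cd80, Cd40, Cd274, Icam1 and Cd200. Cd274, the checkpoint ligand PD-L1, had 530.4 and 339 CPM in Ccr7/Fscn1 cells, against 105 and 126 CPM in Xcr1/Clec9a cells and 0 and 27.9 CPM in Cd209a/Sirpa cells. Il4i1 had 177 and 530 CPM in Ccr7/Fscn1 cells, against at most 2.29 CPM in either of the other subsets. The transcription factor Relb had 265 and 333 CPM in Ccr7/Fscn1 cells, against 14.1 and 45.7 CPM in Xcr1/Clec9a cells and 131 and 32.5 CPM in Cd209a/Sirpa cells. Irf4, a factor tied to the Sirpa lineage, was itself higher here, with 53.0 and 73.9 CPM. It had 0 and 4.57 CPM in Xcr1/Clec9a cells and 0 and 27.9 CPM in Cd209a/Sirpa cells. These levels rest on few UMIs. The batch 1 value lay near the limit of 50 CPM, and the 0 in Cd209a/Sirpa cells of that batch comes from 5 cells.

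Of 13 MHC class II and loading genes compared, H2-DMa, H2-DMb1 and Ciita were at least 2-fold lower in Ccr7/Fscn1 cells in both batches and Lgmn was higher. H2-DMb1 had 106 and 222 CPM in Ccr7/Fscn1 cells, against 640 and 769 CPM in Xcr1/Clec9a cells and 1046 and 679 CPM in Cd209a/Sirpa cells. H2-DMa had 283 CPM in either batch, against 760 and 533 CPM and 807 and 781 CPM. The class II coactivator Ciita had 53.0 and 30.8 CPM, against 197 and 130 CPM and 327 and 130 CPM. Lgmn had 106 and 222 CPM in Ccr7/Fscn1 cells, against 21.1 and 57.2 CPM in Xcr1/Clec9a cells and 65.4 and 158 CPM in Cd209a/Sirpa cells. H2-Ab1 had 2688 and 3067 CPM in Ccr7/Fscn1 cells, against 6477 and 5288 CPM in Xcr1/Clec9a cells and 5472 and 4365 CPM in Cd209a/Sirpa cells. Of the Xcr1 lineage list 11 of 13 were lower (median −3.47).

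**Figure D2:**
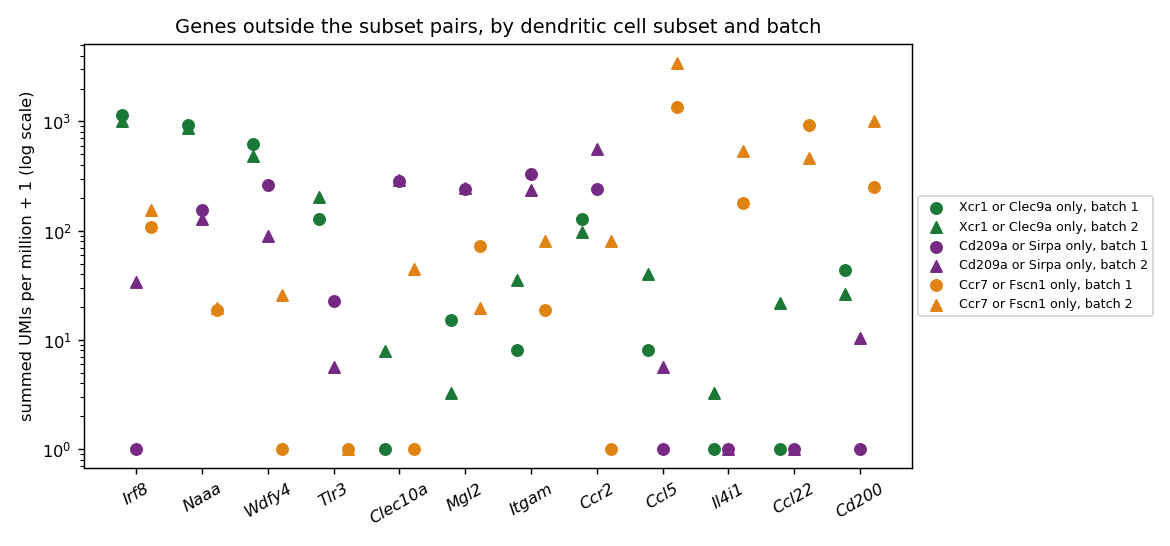
Summed level of 12 genes outside the pairs (CPM + 1, log scale, vertical axis) in dendritic cells with 1 pair only, by subset (color) and batch (circles for 1, triangles for 2). Irf8 stands at 1153 and 997 CPM in Xcr1/Clec9a cells, Clec10a at 283 and 288 CPM in Cd209a/Sirpa cells and Ccl5 at 1344 and 3406 CPM in Ccr7/Fscn1 cells, each above the other subsets.

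Jup, the targeted gene, was too rare in dendritic cells to check the hashtag labels. It had 6 UMIs in batch 1 (16.1 CPM, exact Poisson 95% interval 5.90 to 35.0) and 12 UMIs in batch 2 (9.60 CPM, 4.96 to 16.8). Under TG_DSS there were 4 UMIs in each batch, under TG_WT 0 and 7, under Ctrl_DSS 0 in both and under Ctrl_WT 1 and 0. Cells under every hashtag but Ctrl_DSS had a Jup UMI, and counts this small cannot show a difference. Epithelial cells had 32.3 and 38.6 CPM. The gene lies on chromosome 11 of build mm10 from 100368958 to 100397763, and the sources used here do not say which part of it was deleted, so 3′ reads may lie outside.

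Nearly all dendritic cells carried a hashtag, unlike epithelial cells, of which 88.0% and 89.5% were untagged. A single hashtag was called on 39 of 42 and 143 of 153 dendritic cells. The TG_DSS calls were the least certain. A second rule, which asks for a clear highest hashtag, kept 57 of them and left 20 untagged. That rule made the same call for all 84 TG_WT, 11 Ctrl_DSS and 10 Ctrl_WT cells. In batch 1 the lower mode of TG_DSS lay at 297 hashtag UMIs and its threshold at 479, against 13.2 and 116 for TG_WT. By hashtag, the dendritic cells in batches 1 and 2 numbered 27 and 50 under TG_DSS, 2 and 9 under Ctrl_DSS, 1 and 83 under TG_WT, and 9 and 1 under Ctrl_WT. Only TG_DSS had at least 5 cells in both batches, so genes could not be tested between hashtags. A permutation of 2 batches against 2 cannot go below p = 0.33.

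As a share of all cells with 1 hashtag, dendritic cells were 1.64% (1.08 to 2.37%) in batch 1 and 3.65% (2.72 to 4.79%) in batch 2 under TG_DSS. They were 1.24% (0.151 to 4.42%) and 5.96% (2.76 to 11.0%) under Ctrl_DSS, 0.431% (0.0109 to 2.38%) and 7.19% (5.77 to 8.84%) under TG_WT, and 9.57% (4.47 to 17.4%) and 3.23% (0.0816 to 16.7%) under Ctrl_WT. Within batch 2 the interval under TG_DSS lay below that under TG_WT. In batch 1 the 2 intervals overlapped, with 1 dendritic cell of 232 under TG_WT, and the TG_DSS interval lay below that under Ctrl_WT. No order of TG_DSS and TG_WT can be read in batch 1.

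Among cells with Ptprc (the leukocyte antigen CD45) and 1 hashtag, dendritic cells were 7.79% of 642 (5.84 to 10.1%) under TG_DSS and 17.0% of 488 (13.8 to 20.6%) under TG_WT in batch 2. In batch 1 the shares were 4.80% of 562 and 4.76% of 21. Other cell types were unevenly spread over the hashtags too. In batch 2, TG_DSS held 35.0% of dendritic cells with 1 hashtag and TG_WT 58.0%. Of the neutrophils TG_DSS held 66.5% and TG_WT 33.1%, of the C1q macrophages 44.9% and 38.9%, and of the Ly6c2 Ccr2 monocytes 35.7% and 64.3%. A share depends on every other cell type loaded, and fewer dendritic cells and more of the others cannot be told apart.

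**Figure D3:**
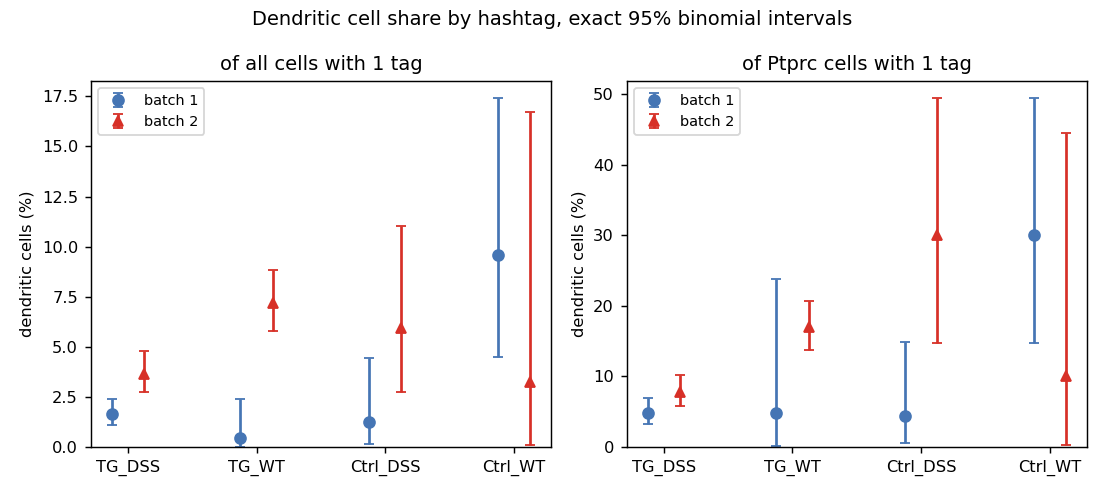
Dendritic cells (percent, vertical axes) of all cells with 1 hashtag (left) and of Ptprc cells with 1 hashtag (right), by hashtag and batch, with exact 95% binomial intervals as bars. On the left TG_DSS stands at 1.64% and 3.65% and TG_WT at 0.431% and 7.19%. The batch 1 intervals overlap, and in batch 2 the TG_DSS interval lies below that of TG_WT.

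The subset mix of batch 2 differed between the 2 hashtags in the counts, with overlapping intervals. Xcr1/Clec9a had a UMI in 21 of 50 dendritic cells under TG_DSS (42%, 28.2 to 56.8%) and 24 of 83 under TG_WT (28.9%, 19.5 to 39.9%). Cd209a/Sirpa was found in 14 under TG_DSS (28%, 16.2 to 42.5%) and 36 under TG_WT (43.4%, 32.5 to 54.7%). Ccr7/Fscn1 was found in 15 (30%, 17.9 to 44.6%) and 39 (47.0%, 35.9 to 58.3%). Median depth was 6853 UMIs under TG_DSS and 6855 under TG_WT. After thinning to 1000 UMIs the shares were 16% and 13.3%, 14% and 16.9%, and 20% and 20.5% in the same order. In batch 1 the shares under TG_DSS were 40.7%, 37.0% and 44.4%.

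Gene levels could be set side by side in batch 2 for 50 cells under TG_DSS and 83 under TG_WT. Of 1406 genes with at least 100 CPM and 10 cells on the higher side, 27 (1.92%) were at least 2-fold higher under TG_DSS and 36 (2.56%) at least 2-fold lower, with a median log2 ratio over all of −0.02. Ratios were taken after adding 5 CPM to both sides. There is 1 set of cells for each hashtag, so no test applies, and TG_DSS of batch 1 is given beside the values as the only other set. That set differs from TG_WT of batch 2 in both hashtag and batch, which cannot be told apart.

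The 10 leading genes on the higher side under TG_DSS included 4 that also led the Xcr1/Clec9a subset. Cystm1 had 124 CPM under TG_DSS (exact Poisson 95% interval 92.0 to 162) and 19.6 CPM under TG_WT (10.4 to 33.5), with 45.1 CPM under TG_DSS in batch 1. Itgae had 218 CPM under TG_DSS and 72.4 CPM under TG_WT, Tlr3 150.2 and 48.2 CPM, and Mctp1 124 and 37.7 CPM. In batch 1 under TG_DSS these 3 had 135, 49.2 and 160.0 CPM. Itgae, Tlr3, Mctp1 and Zdhhc14 were 4 of the 15 leading genes of Xcr1/Clec9a cells. The share of cells with that pair was 42% under TG_DSS and 28.9% under TG_WT, with overlapping intervals, and 16% and 13.3% after thinning. The part of that share was not tested over all cells. Within Xcr1/Clec9a cells alone, Tlr3 had 279.8 CPM under TG_DSS and 129 CPM under TG_WT, and Itgae 352 and 203 CPM.

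Fabp5, a leading gene of Ccr7/Fscn1 cells, had 977 CPM under TG_DSS (884 to 1077) and 351 CPM under TG_WT (308 to 399), with 1120 CPM under TG_DSS in batch 1. Within Ccr7/Fscn1 cells it had 7682 CPM under TG_DSS (9 cells) and 1145 CPM under TG_WT (18 cells). Most of these TG_DSS cells had a UMI of Fscn1, and most of the TG_WT cells had Ccr7 without Fscn1. The subset was thus a different mix of cells under the 2 hashtags, and the part of that mix was not tested. Over all dendritic cells of batch 2, UMIs of Fabp5 were in 16 cells under TG_DSS and 23 under TG_WT. The remaining higher genes were Zdhhc14, Fam168a, Cnot4 (a ubiquitin ligase of the CCR4-NOT complex), Saraf (a regulator of calcium entry) and Gpcpd1, with log2 ratios of 1.57 to 2.06. In batch 1 under TG_DSS they had 45.1, 41.0, 77.9, 24.6 and 82.0 CPM in that order. Saraf there lay below its 49.7 CPM under TG_WT of batch 2. Outside Xcr1/Clec9a cells, most of the 10 higher genes had too few UMIs within a subset for a direction to be read.

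The lower side was led by Gramd1b and Gm11290. Gramd1b, a sterol transfer protein, had 9.69 CPM under TG_DSS (2.64 to 24.8) and 143 CPM under TG_WT (116 to 175), and 0 under TG_DSS in batch 1. Ccl3, a chemokine for monocytes and T cells, had 75.1 CPM under TG_DSS (51.0 to 107) and 314 CPM under TG_WT (272 to 359), with 36.9 CPM in batch 1. Egr1, an early-response factor, had 48.5 CPM (29.6 to 74.9) and 191 CPM (160 to 228), with 94.4 CPM in batch 1. For these 3 the TG_DSS cells of both batches lay below the TG_WT cells of batch 2. For the batch 1 cells, hashtag and batch cannot be told apart.

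Map3k8, a kinase in inflammatory signalling, had 41.2 CPM under TG_DSS and 146 CPM under TG_WT. Phlda1 had 63.0 and 250.2 CPM, Ccnd2 (cyclin D2) 65.4 and 219 CPM, and Id3 41.2 and 139 CPM. Ccnd2 stood at 164 CPM under TG_DSS in batch 1, nearer to TG_WT than to TG_DSS of batch 2. Gm11290, Osbpl8 and Pcgf5 completed the 10, with log2 ratios of −2.93, −1.96 and −1.64. In batch 1 under TG_DSS these 3 had 12.3, 28.7 and 53.3 CPM, and Map3k8, Phlda1 and Id3 had 73.8, 20.5 and 24.6 CPM.

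**Figure D4:**
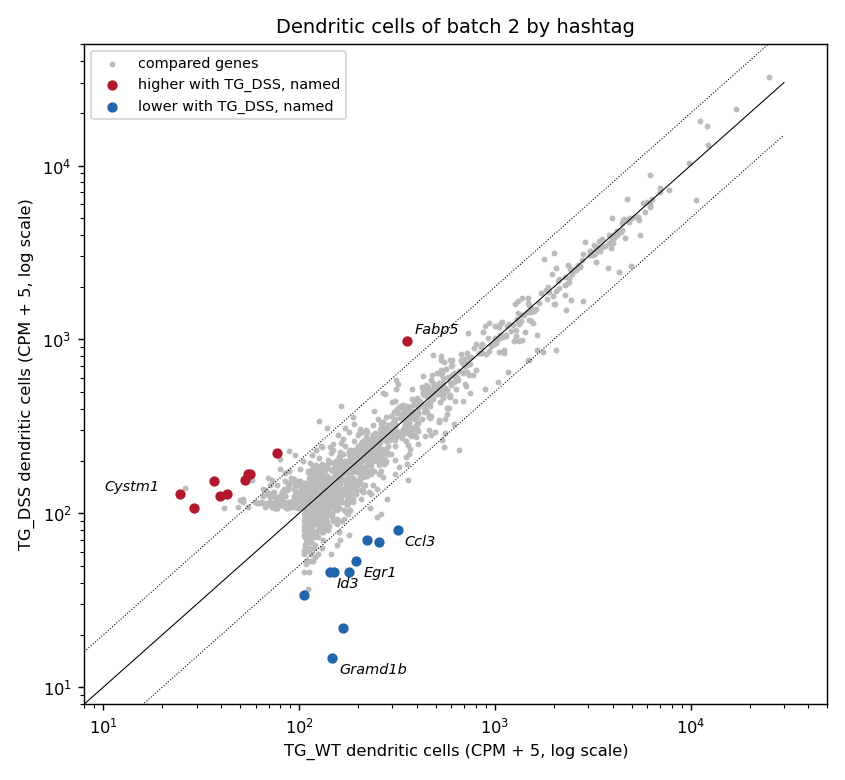
Level of each gene compared in batch 2 dendritic cells under TG_DSS (vertical axis) and TG_WT (horizontal axis), both as CPM + 5 on a log scale, with dotted lines at 2-fold. Most genes lie near the diagonal, with Cystm1 and Fabp5 above it and Gramd1b, Ccl3, Egr1 and Id3 below it.

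By list, 3 of 11 genes of the Xcr1 lineage were at least 2-fold higher under TG_DSS than under TG_WT (Tlr3, Wdfy4 and Itgae, median log2 0.88), and 2 of 5 of the Cd209a/Sirpa lineage were lower. Cd209a had 89.7 CPM under TG_DSS and 246 CPM under TG_WT, and Clec10a 58.2 and 127 CPM. The interferon-stimulated list had 2 of 9 lower, Gbp2 with 53.3 and 140 CPM and Iigp1 with 41.2 and 101 CPM. Of the co-stimulation list 1 of 6 was lower, Tnfsf9 with 116 and 276 CPM. These shares of the lists stand beside 1.92% and 2.56% of all genes.

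Between TG_DSS and TG_WT, none of the 13 MHC class II, 14 mature and 13 common dendritic genes compared differed by 2-fold. Cd74 had 21039 CPM under TG_DSS and 16998 CPM under TG_WT, H2-Ab1 4990 and 3951 CPM, and H2-Aa 8794 and 6191 CPM, with a list median of 0.32. Ccr7 had 356 and 291 CPM, and Ccl22 128 and 155 CPM. Fscn1 and Il12b of the mature list had a UMI in too few cells on the higher side to be compared. Fscn1 had 305 CPM under TG_DSS (8 cells) and 134 CPM under TG_WT (12 cells). Il12b had 17.0 CPM under TG_DSS (3 cells) and 178 CPM under TG_WT (5 cells), the opposite order. The mature list as a whole therefore cannot be called unchanged. Il1b counts varied from cell to cell more than between hashtags. They ran from 0 to 107 UMIs a cell under TG_DSS (median 6) and from 0 to 121 under TG_WT (median 4) in batch 2, and from 0 to 27 (median 1) under TG_DSS in batch 1. The summed Il1b level of batch 2 was 1791 CPM (1664 to 1925) under TG_DSS and 2281 CPM (2167 to 2399) under TG_WT. Its order is thus opposite to that of the medians. None of the 5 genes compared of the inflammasome and interleukin-1 list differed by 2-fold (median −0.41).

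Transcripts known to respond to tissue dissociation differed between the hashtags. The 18 genes of the dissociation-stress list, such as Jun, Atf3 and Hspa1a, summed to 13767 CPM under TG_DSS and 23758 CPM under TG_WT in batch 2 dendritic cells, and to 10157 CPM under TG_DSS in batch 1. Under Ctrl_DSS of batch 2 the sum was 19442 CPM and under Ctrl_WT of batch 1 it was 10465 CPM. Of 17 genes compared, 4 were lower under TG_DSS (median −0.82). Jun had 838 CPM under TG_DSS and 1759 CPM under TG_WT, Atf3 225 and 654 CPM, and the heat shock co-chaperone Dnajb1 235 and 543 CPM. Egr1 is on that list as well. What this list has to do with the lower genes above was not tested.

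The order was shared by other myeloid cells. In batch 2 the list summed to 22604 CPM in C1q macrophages under TG_DSS and 33385 CPM under TG_WT, and to 20842 and 33433 CPM in the Ly6c2 Ccr2 monocytes. In neutrophils the order was the other way, with 19473 CPM under TG_DSS and 14190 CPM under TG_WT. Within the subsets of dendritic cells it was 11443 and 18781 CPM in Xcr1/Clec9a cells, 12642 and 33773 CPM in Cd209a/Sirpa cells (6 and 17 cells), and 13721 and 22757 CPM in Ccr7/Fscn1 cells. Each subset thus had the lower sum under TG_DSS.

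**Figure D5:**
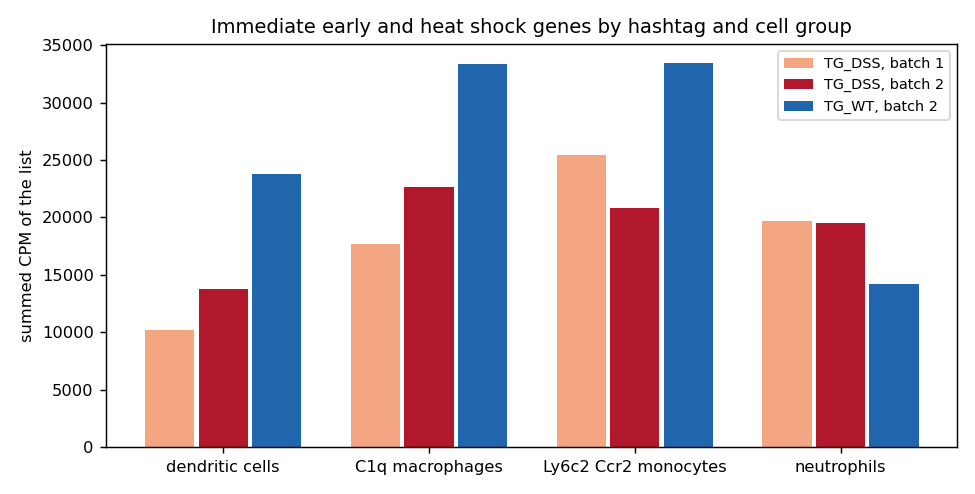
Summed level of the dissociation-stress list of immediate early and heat shock genes (CPM, vertical axis) by hashtag and batch in 4 cell groups, 1 bar for each set of cells. In batch 2, dendritic cells stand at 13767 CPM under TG_DSS and 23758 CPM under TG_WT, and neutrophils show the opposite order.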

How the data were processed

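Colon cells were measured in 2 batches with a 10x 3′ kit and antibody hashtags. The authors deposited unnormalized UMI counts over all barcodes for 32285 genes and 4 hashtags, made with Cell Ranger 7.0.0 and build mm10 per the submitters' processing notes. The sources used here do not give the annotation release. Positions come from GENCODE M21 on the same build, which held 32158 of the identifiers (99.6%).

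Counts were filtered, assigned and summed in Python 3.11.15 with numpy 2.4.6, scipy 1.17.1 and pandas 2.3.3. For each hashtag of a batch, a mixture of 2 Gaussians of equal spread was fitted (scikit-learn 1.9.0) to log10(count + 1) in cells with Ptprc and no Epcam or Krt8 UMI. A cell over exactly 1 threshold was called. Cells over several (2 and 8 dendritic cells) were kept in counts of dendritic cells and left out of hashtag groups. No other doublet caller was run. The code was tested on simulated counts with known changes.

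Comparator cells were C1q macrophages (126 and 224 cells), Ly6c2 Ccr2 monocytes (43 and 179), neutrophils (660 and 893) and epithelial cells with at least 10 UMIs of Epcam and Krt8 and none of Ptprc (4345 and 2528). The monocytes had a UMI of both Ly6c2 and Ccr2 and none of Flt3, Zbtb46, Xcr1, Clec9a or Ccr7. A ratio against cells with none is a lower bound at a floor of 3 counts over the group. Named genes were, for dendritic cells, the 20 with the largest lower ratio of the 2 batches at 50 CPM or more, and for a subset the top 15. In batch 2 they were the 10 largest log2 ratios in each direction, a rule set after the values were seen. The dendritic cell rule and the 26 gene lists (416 entries, 5 not measured) were chosen with earlier results of these data known. Alternatives were other limits of the rule, thinning to 1000 UMIs, other hashtag calls and each batch alone. The hashtag libraries' counts are part of the same tables.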

Additional observations from a re-analysis of the deposited data

How the results depend on the processing

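Dendritic cells numbered 195, 118 after thinning to 1000 UMIs with Cd74 at 2 or more (87 of them among the 195), and 42 to 153 in 1 batch alone. Other limits gave 135 to 209. As an unweighted mean of both batches the share was 2.64% (TG_DSS), 3.81% (TG_WT), 3.60% (Ctrl_DSS) and 6.40% (Ctrl_WT), and of Ptprc cells 6.30%, 10.9%, 17.2% and 20%. These means join unlike batches, 1 of 232 and 83 of 1154 cells for TG_WT and 9 of 94 and 1 of 31 for Ctrl_WT. No order of the hashtags can be read from them. Mean shares of the pairs were 39.6% (Xcr1/Clec9a), 35.6% (Cd209a/Sirpa) and 44.3% (Ccr7/Fscn1). They were 29.8%, 25.4% and 25.0% with 2 UMIs of a pair, and 11.3%, 13.3% and 28.0% after thinning. A marker sum of 2 gave 52.8% for Xcr1/Clec9a and 26.7% for Cd209a/Sirpa.

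Genes at least 4-fold higher in dendritic cells numbered 225, 125 by the mean of per-cell CPM, and 258 to 414 with 1 batch required. With 1 batch, the subsets' genes at least 2-fold higher numbered 319 to 501 (Xcr1/Clec9a, 153 with both), 363 to 1083 (Cd209a/Sirpa, 172) and 570 to 753 (Ccr7/Fscn1, 252), since fewer batches had to pass. Each of the 20 genes of batch 2 moved by less than its counting interval under another hashtag rule, at most 10% mitochondrial UMIs and Cd74 of at least 20. Within Xcr1/Clec9a cells, an alternative chosen after seeing the data, none of 18 changed sign, and Fabp5 and Id3 were at 0 under both hashtags. Within Ccr7/Fscn1 cells the log2 ratio was −1.56 for Zdhhc14, −0.43 for Gpcpd1, −1.56 for Itgae and 0.38 for Pcgf5, from 0, 3, 0 and 9 UMIs under TG_DSS against 1, 9, 1 and 15 under TG_WT. Within Cd209a/Sirpa cells it was −0.15 for Cnot4, −1.22 for Saraf, −2.06 for Mctp1 and −1.37 for Tlr3, from 1, 1, 0 and 0 UMIs against 3, 7, 2 and 1. No direction can be read from these counts.

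The planned count test between hashtags and its alternatives (no batch term, another tool, no filter, other size factors, at least 10 cells a sum, other hashtag calls or limits, each sum left out) were not run, as only TG_DSS had 5 dendritic cells in both batches. No paired analysis was possible because no pair of hashtags had enough dendritic cells in both batches. Many subset calls rest on 1 UMI.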

Other observations

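Small groups of dendritic cells carried transcripts outside the 3 pairs. At least 3 UMIs of Siglech, Ly6d and Cox6a2, genes known from plasmacytoid dendritic cells, were found in 1 cell of batch 1 and 9 cells of batch 2. Of the 9, 4 had the Ccr7/Fscn1 pair only and 3 had several pairs. Ly6d had 238 UMIs in 9 cells, and the top 5 cells held 94.5% of them.

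At least 3 UMIs of Mki67, Top2a, Ube2c, Birc5, Cdk1 and Pclaf, genes of dividing cells, were found in 3 and 10 dendritic cells. In batch 2, 6 of the 10 were cells with the Xcr1/Clec9a pair only. None in either batch had the Ccr7/Fscn1 pair only.

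Aldh1a2, which makes the retinoic acid known from gut dendritic cells, was found in 4 and 5 cells, and Itgb8, an integrin chain that activates TGF-beta, in 2 and 2. Of 41 UMIs of Aldh1a2, 19 were in 1 cell. These counts are too low to place the genes in a subset.

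Several high sums came from single cells. Gzmc, a granzyme of killer lymphocytes, had 396 UMIs, of which 395 were in 1 cell. Thbs1 had 344 UMIs with 199 in 1 cell, Cxcl2 1350 with 618 in 1 cell, and Il1a 92 with 81 in 1 cell.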
